A study of Mus musculus with 16 samples.

Results

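The 10 genes described here encode the front end of Toll-like receptor sensing in the mouse liver: the receptors Tlr2, Tlr3, Tlr4 and Tlr5, the co-receptors and ligand carrier Cd14, Ly96 and Lbp, the adaptors Myd88 and Ticam1, and the kinase Irak4. They were taken by gene name from a table of 57010 genes, and all 10 were found in it. Levels are given as TPM, a transcript unit scaled to gene length and to the total of each library, so levels can be set side by side between genes.

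Liver RNA was measured in 16 wild-type male C57BL/6J mice, with 4 mice in each of 4 groups and 1 library per mouse. The mice were 8 to 12 weeks old in the description of the animals. In the experimental outline they were 8 weeks old at the start of the 3 months of SeMet feeding. The age of each group at collection is not stated. The control mice (27, 28, 29 and 30) received neither agent, and any vehicle given to them is not stated. The Cd mice (1, 2, 5 and 6) received CdCl2, the chloride of the toxic metal cadmium, as 7 daily intraperitoneal injections of 1.25 mg/kg at the end of the experiment. The Se mice (39, 40, 41 and 44) were fed selenomethionine (SeMet), an organic form of selenium, for 3 months with 2 ppm in their chow, and the Cd+Se mice (13, 14, 15 and 16) received both. The samples are whole liver, so a fall in the level of a gene through fewer cells of a type and a fall through less RNA per cell cannot be told apart.

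Toll-like receptors recognise conserved microbial molecules. TLR2 binds bacterial lipoproteins, TLR3 double-stranded RNA in endosomes, TLR4 lipopolysaccharide and TLR5 flagellin. For lipopolysaccharide, the plasma protein LBP transfers the ligand to CD14, which passes it to the complex of MD-2 (the product of Ly96) with TLR4. MyD88 serves most of these receptors and recruits the kinase IRAK4, which leads to NF-kB, whereas TRIF (the product of Ticam1) serves TLR3 and TLR4 and leads to interferon regulatory factors as well. In the liver, Kupffer cells, the resident macrophages, carry many of these proteins and meet bacterial products from the gut, and hepatocytes secrete LBP as an acute-phase protein.

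The CdCl2 labels were checked with the metallothionein genes Mt1 and Mt2, which cadmium is known to induce. Mt1 was at 3178 to 4899 TPM in the Cd mice and 3621 to 6070 TPM in the Cd+Se mice, against 50.9 to 221 TPM in the control mice and 64.3 to 431 TPM in the Se mice. These ranges overlap between Cd and Cd+Se and between control and Se, so the SeMet labels were not checked. The liver label was met as well: the 6 hepatocyte markers, with Alb (albumin) as the most abundant, summed to 77226 ± 8781 TPM (SD, n = 4) in the control mice. Among the libraries, Cd mouse 5 had the lowest median log2(TPM + 1) of the tested genes, 2.68 against 2.90 to 3.36 in the other mice. Cd+Se mouse 15 lay alone on the third principal component, which held 9.52% of the variance. Values without these libraries are given beside several of the results.

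Sequence near the start site bears on the genes that Toll-like receptor signalling is known to drive through NF-kB. RefSeq promoters (GRCm38.p6, from 250 bases before to 50 after the start) were available here for 6 of the 10 genes (Tlr2, Tlr3, Tlr5, Myd88, Ticam1 and Irak4) and for 7 of the 10 tested target genes. The NF-kB motif, which is GGGA, any base and TTTCC, was searched on both strands and was in 0.411% of 32851 promoters. It was found in the promoter of Tlr3 alone among the 6 genes, and in 3 of the 7 target genes. These stretches of 30 bases are shown because Cxcl1, Cxcl2 and Nfkbia were higher in the Cd mice while Tlr3 was lower. They are printed 5′ to 3′ on the strand of the gene, and the capitals mark the match.
Cxcl1: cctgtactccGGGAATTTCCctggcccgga
Cxcl2: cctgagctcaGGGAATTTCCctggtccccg
Nfkbia: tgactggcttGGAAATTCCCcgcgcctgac
Tlr3: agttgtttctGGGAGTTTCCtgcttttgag
The Cxcl1 stretch lies at chr5:90891164-90891193 on the plus strand, with the match starting 71 bases before the start site. The Cxcl2 stretch lies at chr5:90903792-90903821 on the plus strand, with the match 97 bases before the start. The Nfkbia stretch lies at chr12:55492657-55492686 on the minus strand, 29 bases before the start, with the match read on the opposite strand. The Tlr3 stretch lies at chr8:45410572-45410601 on the minus strand, 211 bases before the RefSeq start, and 4 of 9 GENCODE transcripts of Tlr3 include it. The STAT motif TTCNNNGAA (8.30% of all promoters) and the C/EBP motif TTGCNNNAA (9.56%) were found only in Myd88 among the 6 genes, at 46 and 65 bases before its start. Among the 7 target genes the STAT motif was found only in Icam1 (42 bases before its start) and the C/EBP motif only in Cxcl1 (170 bases). The target genes were listed as known targets of this signalling, so their share with the NF-kB motif is no test. A match is a description of the letters and was not tested for binding.

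Lbp had the highest level of the 10 genes, with a mean of 36.3 TPM over the 16 mice. Ly96 (9.31 TPM) and Myd88 (7.73 TPM) followed, then Irak4 (3.71 TPM) and Ticam1 (3.64 TPM), and then Tlr3 (2.59 TPM). Cd14 (1.83 TPM), Tlr5 (1.79 TPM) and Tlr2 (1.62 TPM) came next. Lbp was the highest and Tlr4 the lowest in each group, but the order between them differed between groups. Myd88 (7.99 TPM) was above Ly96 (7.02 TPM) in control mice, Ticam1 (2.75 TPM) above Irak4 (2.11 TPM) in Cd mice, and Tlr2 (3.52 TPM) and Cd14 (2.65 TPM) above Tlr3 (2.61 TPM) in Cd+Se mice. Of Cd14, Tlr5 and Tlr2, in control mice Tlr5 was the highest (2.82 TPM) and Tlr2 the lowest (0.87 TPM), and in Cd+Se mice Tlr2 was the highest and Tlr5 the lowest (1.26 TPM). Tlr4 had a mean of 0.484 TPM, below the mean of 1 TPM set for the test across genes, so 9 of the 10 genes entered that test.

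**Figure D1:**
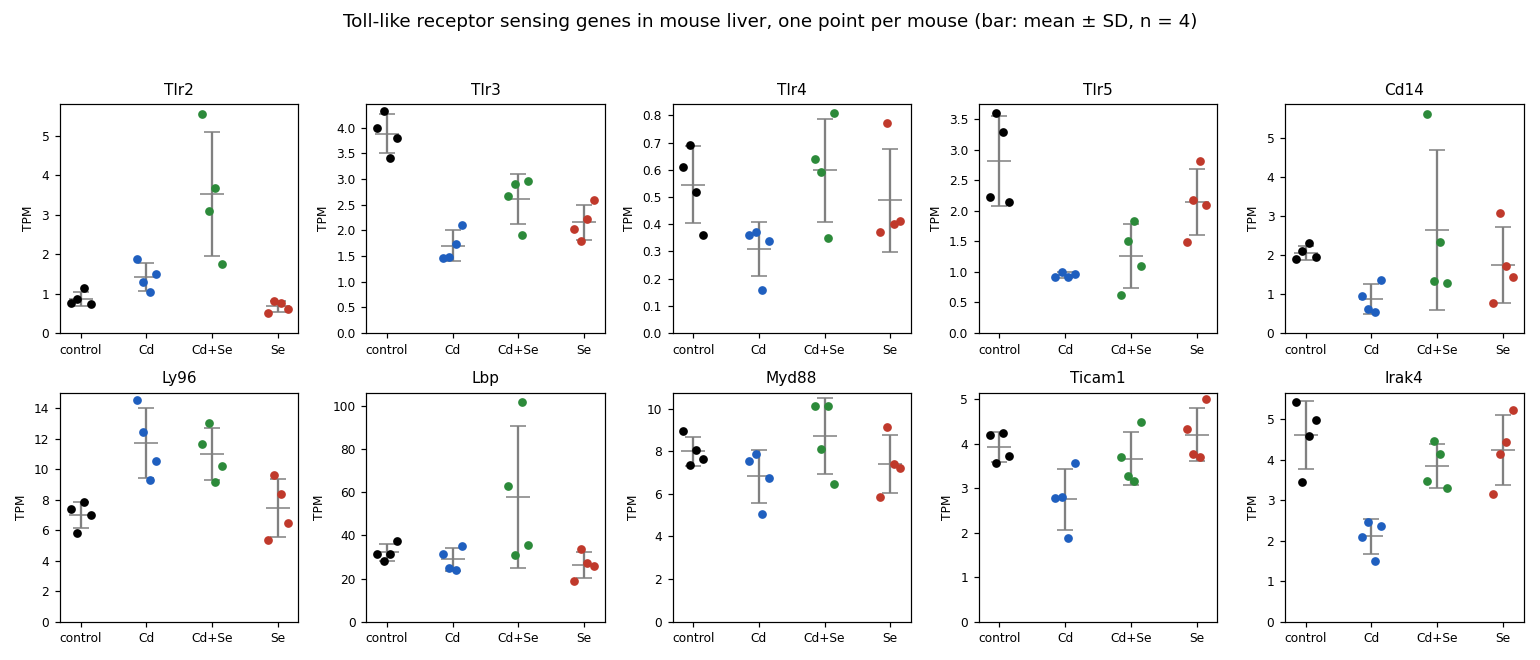
Level in TPM (vertical axis, starting at 0, with its own scale for each gene) of the 10 genes in control, Cd, Cd+Se and Se mice; each point is a mouse and the grey bars give the mean ± SD (n = 4). Tlr3, Tlr5 and Irak4 lie below every control mouse in all 4 Cd mice, and Tlr2 reaches 5.56 TPM in Cd+Se mouse 13.

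The first question was which of these genes differed between Cd and control mice. In the test across 11766 genes (limma, adjusted p under 0.05), 5 of the 9 genes were called: Ly96 was higher, and Tlr3, Tlr5, Irak4 and Ticam1 were lower. Of all genes tested, 30.8% were called, 5.82% higher and 24.9% lower, so calls in this comparison were common. The mice of the 2 groups did not overlap for 6 of the 9 genes, 1 higher and 5 lower, against 34.2% of all genes (6.44% higher and 27.8% lower). The median log2 fold change of the 9 genes was −0.41, against −0.17 over all genes tested. The second question was which genes differed between Cd+Se and Cd mice. Here 3 of the 9 genes were called, Tlr2, Irak4 and Tlr3, all higher in Cd+Se, against 15.9% of all genes (13.6% higher and 2.35% lower). Their median was 0.41, against 0.17 over all genes. Both comparisons share the Cd mice, so a low value in a Cd library enters them in opposite directions.

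The number of calls between Cd+Se and Cd depended on single libraries. It was 1876 genes with all libraries, 712 genes without Cd+Se mouse 14, 767 genes without Cd mouse 5, and 490 genes without Cd mouse 5 and Cd+Se mouse 15 together. The corresponding counts among the 9 genes were 3, 2, 1 and 1. For Cd against control the count among the 9 genes was 5 with all libraries and 4 without Cd mouse 5. The median shift of all genes depended on the scaling. For Cd against control it was −0.17 without rescaling, −0.01 with quantile normalization and 0.05 with each library centred on its median. The share of calls that were lower was 81.1%, 57.1% and 44.4% on these scales for Cd against control, and 14.7%, 43.7% and 57.6% for Cd+Se against Cd.

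**Figure D2:**
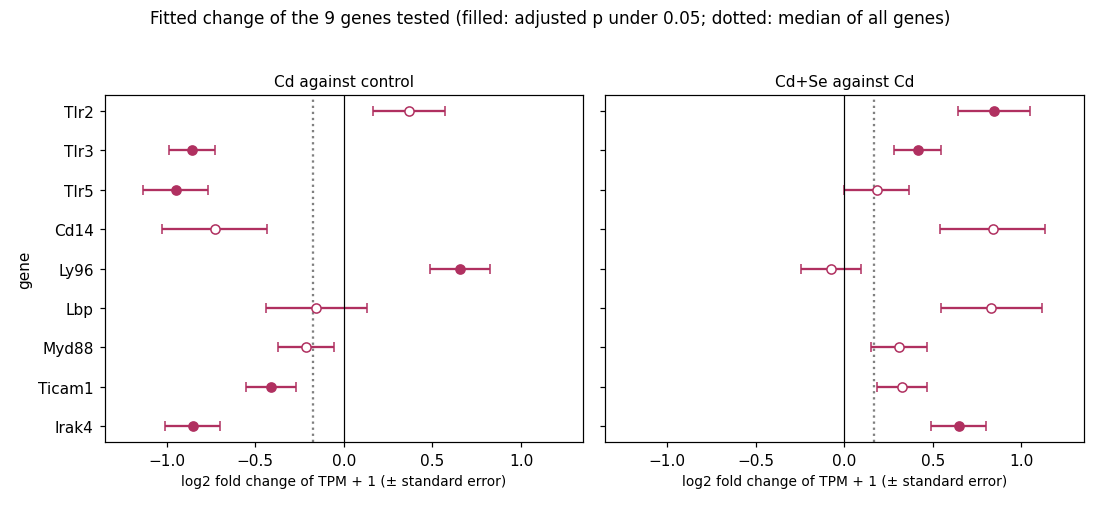
Log2 fold change of TPM + 1 with its standard error (horizontal axis) for the 9 tested genes, Cd against control on the left and Cd+Se against Cd on the right; filled points have an adjusted p under 0.05 and the dotted line is the median of all genes tested (−0.17 and 0.17). Tlr3, Tlr5, Cd14 and Irak4 lie farthest below zero on the left, and Tlr2, Cd14 and Lbp farthest above it on the right.

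Among the receptors, Tlr2 (ENSMUSG00000027995, chr3:83836272-83841767, minus strand, in the GRCm38 annotation) was highest in the mice given both agents. Its level was 0.75, 0.86, 1.13 and 0.74 TPM in control mice 27 to 30, and 1.88, 1.29, 1.04 and 1.49 TPM in Cd mice 1, 2, 5 and 6. In Cd+Se mice 13 to 16 it was 5.56, 3.10, 3.67 and 1.76 TPM, and in Se mice 39, 40, 41 and 44 it was 0.50, 0.82, 0.77 and 0.62 TPM. Every Cd+Se mouse was above every control and Se mouse, while Cd+Se mouse 16 lay below Cd mouse 1. The group means ran from 0.678 ± 0.146 TPM in Se through 0.87 ± 0.182 TPM in control and 1.43 ± 0.355 TPM in Cd to 3.52 ± 1.58 TPM in Cd+Se (SD, n = 4). Of the neighbours in this order, Se and control overlapped, as did control and Cd, and neither pair was called.

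Tlr2 was the only one of the 9 genes called between Cd+Se and control mice, with a log2 fold change of 1.21 (SE 0.203, adjusted p = 0.00959, limma), in a comparison that called 0.484% of all genes. There the groups did not overlap for 4 of the 9 genes (Tlr2 and Ly96 higher, Tlr3 and Tlr5 lower), against 8.86% of all genes. An unadjusted p under 0.05 (limma) was seen for 5 of the 9 genes, against 10.9% of all genes. Tlr2 was likewise the only one called between Cd+Se and Se mice (1.37, SE 0.203, adjusted p = 0.00278), where 0.714% of all genes were called and 5.64% did not overlap. Here 4 of the 9 genes had an unadjusted p under 0.05 (limma), against 10.9% of all genes. Tlr2 differed between Cd+Se and Cd by 0.84 (SE 0.203, adjusted p = 0.0154), and between Cd and control by 0.37 (SE 0.203, adjusted p = 0.180), which was 0.59 with each library centred on its median (adjusted p = 0.0339). Without Cd mouse 5 the difference between Cd+Se and Cd was 0.76 (adjusted p = 0.0511), and without Cd mouse 5 and Cd+Se mouse 15 it was 0.73 (adjusted p = 0.0957). In fits with the libraries of the 2 groups alone, the adjusted p of Tlr2 was 0.0824 against Cd, 0.102 against control and 0.127 against Se. The sums of the neutrophil and monocyte markers were also highest in the Cd+Se mice (values below), though not every marker was, and their part in the level of Tlr2 was not tested.

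Tlr3 (ENSMUSG00000031639, chr8:45395665-45411080, minus strand) was highest in the control mice. It was at 4.0, 4.32, 3.41 and 3.8 TPM in control mice 27 to 30 and at 1.47, 1.49, 1.74 and 2.11 TPM in Cd mice 1, 2, 5 and 6. It was at 2.66, 2.91, 1.91 and 2.96 TPM in Cd+Se mice 13 to 16 and at 2.03, 1.79, 2.23 and 2.59 TPM in Se mice 39, 40, 41 and 44. No treated mouse reached the lowest control mouse. The means were 3.88 ± 0.381 TPM in control, 2.61 ± 0.485 TPM in Cd+Se, 2.16 ± 0.338 TPM in Se and 1.70 ± 0.298 TPM in Cd (SD, n = 4), and the ranges of the 3 treated groups overlapped.

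Between Cd and control, Tlr3 fell by 0.86 on the log2 scale (SE 0.131, adjusted p = 0.000424, limma), and it was called in each of the 24 other settings, with adjusted p up to 0.00704. For Se against control the log2 fold change was −0.63 (SE 0.131, adjusted p = 0.482), without overlap of the groups, which 3.09% of all genes showed. No gene was called in that comparison, in which 0% of the 11766 genes passed and 454 genes (3.86%) had an unadjusted p under 0.05. Tlr3 was the only one of the 9 genes with such a p. The adjusted p depends on how many genes differ in a comparison, so it cannot be set side by side between comparisons. Tlr3 differed between Cd+Se and Cd by 0.41 (SE 0.131, adjusted p = 0.0426), a smaller change than between Se and control. That call was lost in 16 of 24 other settings, among them the fits without each control mouse, without Cd mice 1, 2 or 5, without Cd+Se mice 13, 14 or 16 and without Se mice 39 or 41, with adjusted p from 0.0503 to 0.116 in these. It was also lost under quantile normalization (0.26, adjusted p = 0.224).

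The interaction of Cd and Se asks whether the change with Cd differed between mice with and without SeMet. Tlr3 was the only one of the 9 genes called (log2 difference of differences 1.04, SE 0.185, adjusted p = 0.0218), against 1.04% of all genes. An unadjusted p under 0.05 (limma) was seen for 5 of the 9 genes, against 21.3% of all genes. With SeMet in the diet Tlr3 differed by 0.19 between Cd+Se and Se (SE 0.131, adjusted p = 0.677), and without it by −0.86 between Cd and control. Without control mouse 27, 28 or 29, Cd+Se mouse 14 or Se mouse 39, the interaction was 1.0 to 1.09 with adjusted p from 0.0501 to 0.0692. The number of genes called in the interaction was 122 with all libraries, and from 2 genes (without control mouse 29) to 348 genes (without Se mouse 40) when a library was left out.

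Tlr5 (ENSMUSG00000079164, chr1:182954788-182976044, plus strand) was lower in the Cd mice than in the control mice. Its level was 2.23, 3.60, 3.29 and 2.15 TPM in control mice 27 to 30 and 0.91, 1.0, 0.92 and 0.97 TPM in Cd mice 1, 2, 5 and 6. In Cd+Se mice 13 to 16 it was 0.62, 1.5, 1.83 and 1.09 TPM, and in Se mice 39, 40, 41 and 44 it was 1.49, 2.18, 2.81 and 2.09 TPM. The Cd mice were nearly alike and lay below every control and Se mouse, and the Cd+Se mice lay below every control mouse but overlapped the Se mice. Between Cd and control the log2 fold change was −0.95 (SE 0.182, adjusted p = 0.00164, limma). It was −0.77 between Cd+Se and control (SE 0.182, adjusted p = 0.0860) and 0.18 between Cd+Se and Cd (SE 0.182, adjusted p = 0.513), a value that was −0.01 after centring on the library median. Leaving out Cd+Se mouse 13 gave 0.33 for Cd+Se against Cd, and leaving out Cd+Se mouse 15 gave 0.06. Without Cd+Se mouse 15 the difference between Cd+Se and control was −0.89 (adjusted p = 0.0361), and it also passed without that mouse and Cd mouse 5.

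Tlr4 (ENSMUSG00000039005, chr4:66827584-66930284, plus strand) was under 1 TPM in every mouse. It was at 0.61, 0.69, 0.52 and 0.36 TPM in control mice 27 to 30 and at 0.36, 0.37, 0.16 and 0.34 TPM in Cd mice 1, 2, 5 and 6. It was at 0.64, 0.59, 0.35 and 0.81 TPM in Cd+Se mice 13 to 16 and at 0.37, 0.77, 0.40 and 0.41 TPM in Se mice 39, 40, 41 and 44. The groups overlapped in every comparison. In an exact two-sided permutation test over 70 arrangements, whose smallest possible p is 0.0286, the mean log2(TPM + 1) differed by −0.24 between Cd and control (p = 0.0857) and by 0.28 between Cd+Se and Cd (p = 0.0857). Adjusted over the 5 comparisons of Tlr4, both exact permutation p were 0.214. The difference between Cd and control was −0.35 with the smallest exact permutation p, 0.0286, under quantile normalization, −0.019 (exact p = 0.771) with each library centred on its median and −0.67 with a pseudocount of 0.1. The other 3 comparisons of Tlr4 had exact p from 0.429 to 0.714. The depth of the libraries is unknown, so how far such low values are resolved cannot be given.

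Among the proteins that deliver lipopolysaccharide to TLR4, Cd14 (ENSMUSG00000051439), the co-receptor on macrophages and monocytes, was low in the Cd mice. Its level was 1.91, 2.10, 2.30 and 1.94 TPM in control mice 27 to 30 and 0.95, 0.63, 0.54 and 1.37 TPM in Cd mice 1, 2, 5 and 6. In Cd+Se mice 13 to 16 it was 5.63, 1.34, 2.35 and 1.28 TPM, and in Se mice 39, 40, 41 and 44 it was 0.77, 3.09, 1.71 and 1.43 TPM. Every Cd mouse was below every control mouse, whereas the Cd+Se mice spread over a wide range that was set by mouse 13. The log2 fold change between Cd and control was −0.73 (SE 0.297, adjusted p = 0.0723, limma), and it passed the threshold in 3 of 24 other settings: without Cd+Se mouse 13 (adjusted p = 0.0214), with a pseudocount of 0.1 (−1.23, adjusted p = 0.0421) and in the fit of the 2 groups alone (adjusted p = 0.00745). The difference between Cd+Se and Cd was 0.84 (SE 0.297, adjusted p = 0.0636), and it passed in 4 of 24 other settings: without Cd+Se mouse 16 (adjusted p = 0.0460), without Se mouse 40 (0.0462), with a pseudocount of 0.1 (1.32, adjusted p = 0.0489) and over protein-coding genes only (0.0481). Without Cd+Se mouse 13, the highest, it was 0.50 (adjusted p = 0.155). For Cd+Se against control it was 0.11 with all libraries and −0.23 without Cd+Se mouse 13.

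Ly96 (ENSMUSG00000025779, chr1:16688051-16709611, plus strand), which encodes the TLR4 partner MD-2, was the only one of the 9 genes called higher in Cd than in control mice. It was at 7.41, 5.84, 7.83 and 7.01 TPM in control mice 27 to 30 and at 14.58, 12.45, 9.31 and 10.52 TPM in Cd mice 1, 2, 5 and 6. It was at 11.68, 13.07, 9.18 and 10.20 TPM in Cd+Se mice 13 to 16 and at 5.35, 9.63, 8.41 and 6.51 TPM in Se mice 39, 40, 41 and 44. Both groups given CdCl2 lay above every control mouse, and Se mouse 40 lay above Cd mouse 5 and Cd+Se mouse 15. The log2 fold change was 0.65 between Cd and control (SE 0.169, adjusted p = 0.00918, limma), and the call held in each of the 25 other settings. Between Cd+Se and control it was 0.58 (SE 0.169, adjusted p = 0.177), which passed the threshold under quantile normalization (0.61, adjusted p = 0.0352) and after centring on the library median (0.61, adjusted p = 0.0374). For Cd+Se against Cd it was −0.07 (SE 0.169, adjusted p = 0.797), 0.03 without Cd mouse 1 and 0.0040 without Cd+Se mouse 15.

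Lbp (ENSMUSG00000016024, chr2:158306493-158332852, plus strand) varied most within the Cd+Se group. It was at 31.50, 28.13, 31.38 and 37.41 TPM in control mice 27 to 30 and at 31.53, 24.93, 24.07 and 35.28 TPM in Cd mice 1, 2, 5 and 6. It was at 62.75, 31.01, 102.01 and 35.39 TPM in Cd+Se mice 13 to 16 and at 18.76, 33.64, 27.27 and 25.79 TPM in Se mice 39, 40, 41 and 44. Cd+Se mice 13 and 15 were above every other mouse, and Cd+Se mice 14 and 16 lay within the range of the control mice. The Cd and control groups overlapped, with a log2 fold change of −0.15 (SE 0.284, adjusted p = 0.710, limma) that was 0.07 after centring on the library median. Between Cd+Se and Cd the log2 fold change was 0.83 (SE 0.284, adjusted p = 0.0572). It passed the threshold in 4 of 25 other settings: with the minimum mean level raised to 5 TPM (adjusted p = 0.04999), over protein-coding genes only (adjusted p = 0.0444), without Cd+Se mouse 14 (1.07, adjusted p = 0.0381) and without Cd+Se mouse 16 (1.01, adjusted p = 0.0405), the mice of that group with the lower levels. Without Cd+Se mouse 15, the highest, it was 0.51 (adjusted p = 0.145), and without that mouse and Cd mouse 5 it was 0.43 (adjusted p = 0.307).

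Of the proteins that relay the signal inside the cell, Irak4 (ENSMUSG00000059883, chr15:94543643-94581815, plus strand) was lower in the Cd mice than in every other mouse. Its level was 5.44, 3.45, 4.6 and 4.98 TPM in control mice 27 to 30 and 2.10, 2.47, 1.5 and 2.37 TPM in Cd mice 1, 2, 5 and 6. In Cd+Se mice 13 to 16 it was 3.48, 4.47, 4.14 and 3.31 TPM, and in Se mice 39, 40, 41 and 44 it was 3.15, 4.15, 4.44 and 5.24 TPM. The Cd range, 1.5 to 2.47 TPM, did not meet the range of any other group, and the other 3 groups overlapped each other. Irak4 fell from control to Cd by 0.85 on the log2 scale (SE 0.155, adjusted p = 0.0012, limma), a call that held in each of the 24 other settings. From Cd to Cd+Se it rose by 0.65 (SE 0.155, adjusted p = 0.0154), and it was the only one of the 9 genes whose groups did not overlap there, against 19.2% of all genes. The adjusted p was 0.0517 without Cd+Se mouse 14, 0.0928 without Cd mouse 5 and Cd+Se mouse 15, and 0.0679 in the fit of the 2 groups alone.

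Ticam1 (ENSMUSG00000047123, chr17:56269319-56276786, minus strand) was at 4.19, 3.57, 4.24 and 3.72 TPM in control mice 27 to 30 and at 2.77, 2.79, 1.87 and 3.56 TPM in Cd mice 1, 2, 5 and 6. It was at 3.71, 3.28, 3.17 and 4.49 TPM in Cd+Se mice 13 to 16 and at 4.33, 3.77, 3.71 and 4.99 TPM in Se mice 39, 40, 41 and 44. Every Cd mouse was below every control mouse, but Cd mouse 6 and control mouse 28 differed by little. Ticam1 fell from control to Cd by 0.41 (SE 0.142, adjusted p = 0.0377, limma). The call was lost in 12 of 24 other settings, which included the fits without each control mouse in turn and without Cd mouse 1, 2 or 5 (adjusted p from 0.0526 to 0.115) and quantile normalization (−0.22, adjusted p = 0.209). Cd+Se and Cd mice differed by 0.33 (SE 0.142, adjusted p = 0.123). That difference was 0.20 without Cd mouse 5, 0.14 under quantile normalization and 0.13 after centring.

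Myd88 (ENSMUSG00000032508, chr9:119335934-119341411, minus strand), which serves TLR2, TLR4 and TLR5, overlapped in every comparison. It was at 8.93, 7.33, 8.06 and 7.63 TPM in control mice 27 to 30 and at 7.56, 7.87, 5.07 and 6.76 TPM in Cd mice 1, 2, 5 and 6. It was at 10.13, 8.10, 10.12 and 6.44 TPM in Cd+Se mice 13 to 16 and at 5.83, 9.15, 7.42 and 7.21 TPM in Se mice 39, 40, 41 and 44. The log2 fold change was −0.21 between Cd and control (SE 0.158, adjusted p = 0.322, limma), 0.0042 after quantile normalization and 0.0062 after centring, and 0.31 between Cd+Se and Cd (SE 0.158, adjusted p = 0.186). Without Cd mouse 5 it was −0.10 between Cd and control and 0.19 between Cd+Se and Cd. Myd88 was called in none of the 6 comparisons.

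The other genes of the pathway were a list of 35 receptors, accessory proteins, kinases and transcription factors, of which 25 were tested. Between Cd and control 1 was higher and 9 were lower (5.82% and 24.9% of all genes), with a median log2 fold change of −0.25 against −0.17 over all genes. Between Cd+Se and Cd 7 were higher and none was lower (13.6% and 2.35% of all genes), with a median of 0.32 against 0.17. None was called in the other 4 comparisons, in which 3, 1, 3 and 9 of them had an unadjusted p under 0.05 (Cd+Se against control, Se against control, Cd+Se against Se and the interaction, limma), against 10.9%, 3.86%, 10.9% and 21.3% of all genes. Ikbke, a kinase that acts on interferon regulatory factors, was the gene that rose with Cd, from 4.38 to 5.90 TPM in the control mice to 9.75 to 12.81 TPM in the Cd mice (log2 fold change 1.01, adjusted p = 0.00256). Its ranges did not overlap, and the Cd+Se mice lay between 7.51 and 17.73 TPM.

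The 9 lower genes were Tlr12, Tirap, Irak1, Traf6, Tollip, Map3k7, Tbk1, Rela and Irf5. Traf6, the ubiquitin ligase that acts after the IRAK kinases, was at 4.25 to 4.89 TPM in control and 1.61 to 3.51 TPM in Cd mice (−0.66, adjusted p = 0.00648). Map3k7, which encodes the kinase TAK1, fell by 0.59 on the log2 scale (adjusted p = 0.00495) and Tirap, the bridging adaptor of TLR2 and TLR4, fell by 0.60 (adjusted p = 0.0110). Tollip, an inhibitor of IRAK1, fell by 0.66 (adjusted p = 0.00157), from 16.45 to 20.54 TPM in control to 8.89 to 13.39 TPM in Cd mice, and the transcription factor gene Irf5 fell by 0.66 (adjusted p = 0.00613). Both signalling proteins and an inhibitor were therefore among the genes that fell. Each of these 6 genes, Ikbke included, was called in every other setting that was run, whereas Tlr12 lost the call in 8 of 24, Rela in 7 of 25 and Tbk1 in 4 of 25. Without Cd mouse 5, 6 of the 25 genes were lower and 1 was higher.

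Between Cd+Se and Cd, the gene of this list with the largest difference was Irak1, the kinase that IRAK4 phosphorylates, at 8.12 to 13.91 TPM in Cd and 15.62 to 20.35 TPM in Cd+Se mice (0.66, adjusted p = 0.0117). Map3k7 (0.59, adjusted p = 0.0141) and Tollip (0.54, adjusted p = 0.0146) were also higher in every Cd+Se mouse than in any Cd mouse. Irf5 (0.56, adjusted p = 0.0287), Traf6 (0.52, adjusted p = 0.0380) and Tbk1 (0.49, adjusted p = 0.0279), the TRIF-dependent kinase, passed as well. Those 3 calls were lost in 9 of 24, 10 of 24 and 8 of 25 other settings, and those of Irak1, Map3k7 and Tollip in 2 of 25 each. The 7 calls, of which the last was Irf7 (0.40, adjusted p = 0.0293, lost in 9 of 25), were 3 without Cd mouse 5, 5 without Cd+Se mouse 15 and 1 (Irf7) without both. Without both, Irak1 differed by 0.51 (adjusted p = 0.0507). The Cd mice again stand on both sides of these comparisons.

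The genes that Toll-like receptor signalling is known to induce were a list of 16, of which 10 were tested. Between Cd and control 5 rose (5.82% of all genes did) and none fell, with a median log2 fold change of 0.71 against −0.17 over all genes. The ranges of 8 of the 10 did not overlap, all with Cd higher (6.44% of all genes tested). Il1b and Ccl5 overlapped. Il1b had a lower mean in Cd (2.08 TPM) than in control mice (3.48 TPM). Ccl5 was at 1.59 to 3.76 TPM in control and 2.81 to 8.05 TPM in Cd mice. Ccl2, a monocyte attractant, was at 0.07 to 1.14 TPM in control and 4.14 to 4.54 TPM in Cd mice (1.90, adjusted p = 0.000699). Cxcl1, a neutrophil attractant, was at 9.94, 5.41, 4.15 and 36.10 TPM in control mice 27 to 30 and at 38.11, 45.14, 44.90 and 45.41 TPM in Cd mice 1, 2, 5 and 6 (2.04, adjusted p = 0.0195). Control mouse 30 was thus close to the Cd mice.

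Cxcl2, also a neutrophil attractant, was at 0.10 to 0.26 TPM in control and 0.98 to 2.34 TPM in Cd mice (1.23, adjusted p = 0.00212). Cxcl10, an interferon-inducible chemokine, was at 2.12 to 2.48 TPM in control and 5.46 to 9.70 TPM in Cd mice (1.49, adjusted p = 0.00125). Nfkbia, which encodes the NF-kB inhibitor IkBa, was at 15.47 to 20.13 TPM in control and 23.71 to 33.51 TPM in Cd mice (0.53, adjusted p = 0.0268). All 5 genes are also known to respond to inputs other than Toll-like receptors, and which input acted here was not measured. The calls of Nfkbia and Cxcl1 were lost in 4 and 3 of 25 other settings. Ifnb1, the interferon gene downstream of TRIF, was listed at 0 in all 16 libraries.

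Against control, 5 of the 10 target genes were called higher in the Cd+Se mice, Cxcl2, Cxcl10, Ccl2, Icam1 and Tnfaip3, and the same 5 were called against Se (0.484% and 0.714% of all genes were called). Cxcl1 (2.41, adjusted p = 0.103, overlapping groups) and Nfkbia (0.62, adjusted p = 0.138) were called in Cd but not in Cd+Se mice against control. Their changes were not smaller in the Cd+Se mice, being 2.04 and 0.53 in the Cd mice. The adjustment is made within each comparison, and Cd against control called 3619 genes where Cd+Se against control called 57. Tnfaip3 lost its call against control in 15 of 24 other settings, one of them without Cd+Se mouse 15 (0.92, adjusted p = 0.0540), and against Se in 14 of 24. Icam1 lost its call in 6 of 25 other settings against control and in 10 of 25 against Se, and Cxcl2, Cxcl10 and Ccl2 each lost theirs in 1 setting in either comparison. Of the 10, 2 were higher and none lower in Cd+Se than Cd mice (median 0.39 against 0.17 over all genes), a share near the 13.6% of all genes called higher. Tnfaip3, which encodes the NF-kB inhibitor A20, was at 1.55, 1.51, 0.96 and 1.51 TPM in Cd mice 1, 2, 5 and 6 and at 4.36, 1.49, 5.37 and 1.94 TPM in Cd+Se mice 13 to 16 (0.75, adjusted p = 0.0417). Mice 13 and 15, which had the highest Lbp, were again the highest. Icam1, an adhesion molecule for leukocytes, was at 7.15 to 9.43 TPM in Cd and 9.92 to 16.14 TPM in Cd+Se mice (0.54, adjusted p = 0.0357). The call of Tnfaip3 was lost in 16 of 24 other settings and that of Icam1 in 11 of 25, and neither gene was called without Cd mouse 5 or without Cd+Se mouse 15.

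**Figure D3:**
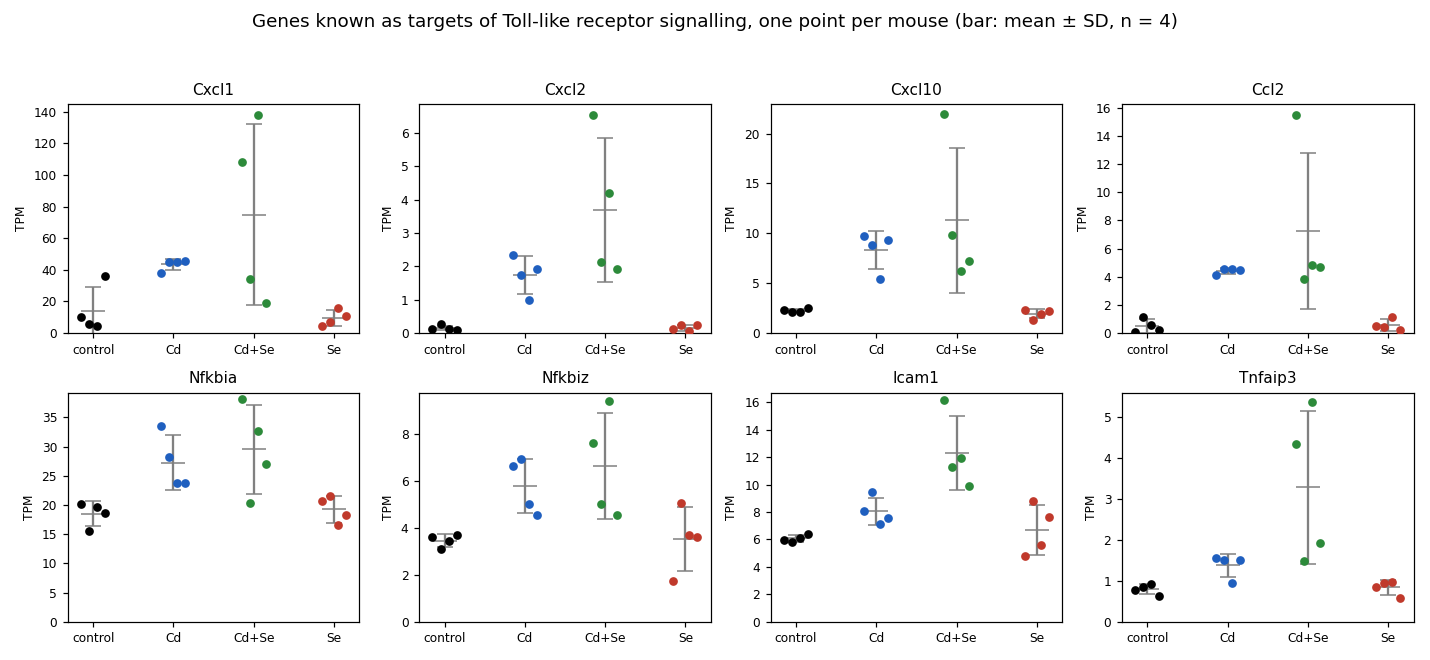
Level in TPM (vertical axis, starting at 0, with its own scale for each gene) of 8 genes known as targets of Toll-like receptor signalling. They are the 8 of the 10 tested targets whose Cd and control ranges did not overlap, and Il1b and Ccl5 are not shown. Each point is a mouse and the grey bars give the mean ± SD (n = 4). Ccl2 is at 4.14 to 4.54 TPM in the Cd mice and at or below 1.17 TPM in every control and Se mouse, and Cxcl1 reaches 138 TPM in Cd+Se mouse 15.

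Markers of the cells that carry these receptors differed between the groups. The 8 Kupffer cell markers, of which Clec4f was the most abundant in control and Se mice and Cd5l in Cd and Cd+Se mice, summed to 155 ± 14.8 TPM in control, 64.5 ± 12.1 TPM in Cd, 78.5 ± 20.7 TPM in Cd+Se and 132 ± 44.7 TPM in Se mice (SD, n = 4). All 8 fell between Cd and control (limma), against 24.9% of all genes, although Cd5l lost the call in 9 of 25 other settings and 7 of 8 were called without Cd mouse 5. Between Cd+Se and control 3 of the 8 (Clec4f, Vsig4 and Timd4) fell, where 0.484% of all genes were called. Adgre1, 1 of the 8, rose between Cd and Cd+Se (13.6% of all genes were higher), a call lost in 7 of 24 other settings, one of them without Cd mouse 5 (0.66, adjusted p = 0.0892). Tlr3, Tlr5, Irak4 and Ticam1 were called lower in the Cd mice together with these markers. Cd14 was low there but not called, and Ly96 was called higher. In the Cd+Se mice Tlr3 and Tlr5 also lay below every control mouse. Irak4 was at a mean of 3.85 TPM there and 4.62 TPM in control mice, and Cd14 at 2.65 and 2.06 TPM, with overlap. In the Se mice Tlr3 was at 2.16 TPM, against 3.88 TPM in control mice. The part of cell numbers in these levels was not tested.

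The 8 neutrophil markers, led by S100a9, summed to 12.9 ± 4.94 TPM in control, 38.6 ± 4.23 TPM in Cd, 57.1 ± 13.8 TPM in Cd+Se and 8.71 ± 1.81 TPM in Se mice (SD, n = 4). Of the 4 tested, 3 (S100a8, S100a9 and Retnlg) rose between Cd and control, where 5.82% of all genes did, and none was called between Cd+Se and Cd. In the Cd+Se mice 3 were called higher than in control and 4 higher than in Se mice, where 0.484% and 0.714% of all genes were called. Of the markers under the level set for testing, Ngp was at 0.84 TPM in Cd and 0.54 TPM in Cd+Se mice, and the granule genes Camp and Mpo were listed at 0 in 8 and 7 of the 16 libraries. The 7 monocyte markers, led by Lyz2, summed to 87.0 ± 9.01 TPM in control, 90.8 ± 16.5 TPM in Cd, 130 ± 33.4 TPM in Cd+Se and 81.3 ± 5.08 TPM in Se mice (SD, n = 4). Of the 5 tested, 2 (Ly6c2 and Ccr2) rose between Cd and control (5.82% of all genes), calls lost in 2 and 5 of 24 other settings, and 1 (Lyz2) rose between Cd and Cd+Se, a share near the 13.6% of all genes. In the Cd+Se mice 1 (Ccr2) was called higher than in control and 2 (Ccr2 and Lyz2) higher than in Se mice (0.484% and 0.714% of all genes were called). Against Se, Lyz2 lost its call in 16 of 25 other settings. Spp1 was at 39.2 TPM in Cd and 37.7 TPM in Cd+Se mice. Tlr2 had the same order of group means as the neutrophil and monocyte sums. The lymphocyte sums of Cd and Cd+Se mice were nearly equal (4.18 and 4.19 TPM). Within the Cd+Se group, Tlr2 was at 5.56, 3.10, 3.67 and 1.76 TPM in mice 13 to 16. In the same order the monocyte sums were 169, 117, 91.9 and 143 TPM, and the neutrophil sums 77.43, 46.95, 50.28 and 53.69 TPM. Mouse 13 was thus the highest in all 3, and the order of the other mice differed. The relation was not tested.

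In exact two-sided permutation tests of the marker sums, the Kupffer sum differed between Cd and control by −1.27 on the log2 scale and the neutrophil sum by 1.58. Both had the smallest p the design allows (0.0286), which was 0.0816 after adjustment over the 20 exact tests of marker sums. The neutrophil sum also differed between Cd+Se and Cd without overlap (0.53, exact permutation p = 0.0286, adjusted 0.0816), although none of its 4 tested markers was called there. Against control and Se it was higher in the Cd+Se mice by 2.11 and 2.57 (both exact permutation p = 0.0286, adjusted 0.0816). The Kupffer sum differed between Cd+Se and control by −1.01, and the monocyte sum between Cd+Se and Se by 0.64. Neither overlapped (both exact permutation p = 0.0286, adjusted 0.0816). For hepatocytes, the sum was 58202 ± 13307 TPM in Cd, 68231 ± 8764 TPM in Cd+Se and 81430 ± 22831 TPM in Se mice, and 1 of the 6 markers (Serpina1c) was called lower between Cd and control, where 24.9% of all genes were. That call was lost in 9 of 25 other settings, with a log2 fold change of −0.37 that was −0.15 (adjusted p = 0.487) after centring.

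Sums of the 6 sinusoidal endothelium markers, led by Clec4g, were 68.5 ± 5.54 TPM in control, 49.6 ± 8.34 TPM in Cd, 68.0 ± 18.2 TPM in Cd+Se and 54.6 ± 11 TPM in Se mice (SD, n = 4). In the Cd mice 2 of these markers (Stab2 and Kdr) were called lower than control, a share near the 24.9% of all genes, and the calls were lost in 6 and 5 of 25 other settings. Without Cd mouse 5, Stab2 was at −0.59 (adjusted p = 0.0535, against −0.62 with all libraries) and Kdr at −0.81 (adjusted p = 0.0646, against −0.90). The count of markers called lower was 0 of 6 there, 3 of 6 without Cd+Se mouse 15 and 2 of 6 without both. Lyve1 of the same list was called higher in Cd+Se than in Cd (1.09, adjusted p = 0.0138) and in Se mice (1.68, adjusted p = 0.00278), and in the interaction of Cd and Se (1.62, adjusted p = 0.0434), a call lost in 13 of 23 other settings. The 6 stellate cell markers, led by Dcn, summed to 198 ± 29.2, 168 ± 36.7, 218 ± 79.0 and 175 ± 34.7 TPM in the same order, with 1 of 5 (Reln) called lower between Cd and control (24.9% of all genes). Without Cd+Se mouse 15, the sums in the Cd+Se mice were 76.8 TPM for endothelium and 257 TPM for stellate cells, and 4 of 6 and 2 of 5 markers were called higher in Cd+Se than Cd mice, against 1 of 6 and 0 of 5 with all libraries and 0 of 6 and 0 of 5 without Cd mouse 5 as well. The other sums without Cd mouse 5 or Cd+Se mouse 15 were 66.4 and 77.1 TPM for Kupffer cells, 39.4 and 59.4 TPM for neutrophils and 98.8 and 143 TPM for monocytes. None of the 6 lymphocyte markers, among which Nkg7 was the most abundant in control, Cd3g in Se and Cd79a in Cd and Cd+Se mice, reached the level set for testing, and their sums were 3.49, 4.18, 4.19 and 2.22 TPM.

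**Figure D4:**
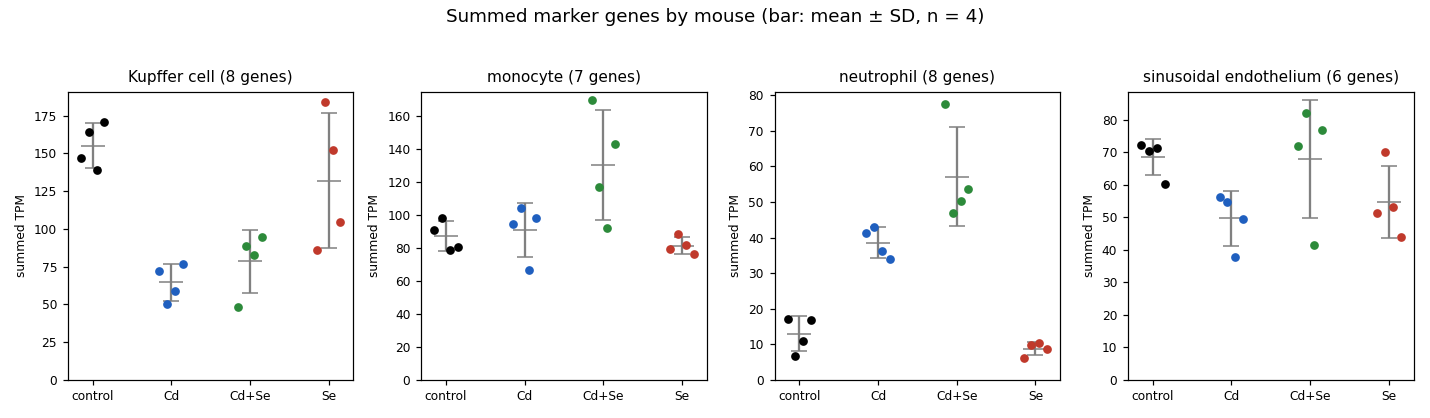
Summed TPM (vertical axis, starting at 0) of the markers of Kupffer cells, monocytes, neutrophils and sinusoidal endothelium by group; each point is a mouse and the grey bars give the mean ± SD (n = 4). The Kupffer cell sum is 138.7 to 170.5 TPM in control and 50.4 to 76.7 TPM in Cd mice, and the neutrophil sum is at or below 17.0 TPM in every control and Se mouse and at least 33.9 TPM in every Cd and Cd+Se mouse.

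For 4 of the genes, the tested genes with the most similar pattern over the 16 libraries were read from the Pearson correlation of log2(TPM + 1). These libraries share the treatment groups, so the values describe likeness in this design only. Nearest to Tlr2 were Plek (r = 0.957), a cytoskeletal protein of leukocytes and platelets, and Cd93 (0.934). Nearest to Lbp were Retreg1 (0.880), Serpina3n (0.876), an acute-phase protein, and Zc3h12a (0.875), a ribonuclease that degrades inflammatory mRNA. Nearest to Tlr4 were Alcam (0.920), Sh3glb1 (0.909) and Nid1 (0.889), and nearest to Cd14 were the long non-coding RNA 4931408D14Rik (0.895), Slc38a4 (0.875) and Plbd2 (0.856).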

How the data were processed

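Liver RNA of 16 mice was sequenced after poly(A) selection. TPM were deposited by the authors in 1 table, with a column per mouse, although each sample title carries a pair of replicate tags. The submitters' notes name fastp, HISAT2 and StringTie without versions and the build GRCh38, a human build, while the table holds mouse Ensembl identifiers and no coordinates, so positions come from GENCODE M21 (GRCm38) by identifier. TPM keep no depth, so precision rests on the 4 mice per group. The sources used here give no batches, and p-values measure the spread between these mice only.

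Values were tested as log2(TPM + 1), so fold changes of low genes are understated. The 11766 genes that averaged 1 TPM or more were fitted in 1 model with 6 comparisons (limma 3.58.1, R 4.3.3, trend in eBayes). Benjamini-Hochberg adjustment over all genes was made within each comparison, with a threshold of 0.05. The same unadjusted p can therefore pass in a comparison with many calls and fail in one with few. Tlr4 and the marker sums of hepatocytes, Kupffer cells, monocytes and neutrophils were compared by exact two-sided permutation tests. The steps were tested on simulated data. Other settings were a pseudocount of 0.1, no filter or 5 TPM, quantile normalization, centring, no trend, protein-coding genes, the compared groups alone and leaving out each library. Leaving out Cd mouse 5 with Cd+Se mouse 15 was chosen after seeing the data.

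Members and lists were chosen with earlier results of these data known. Named besides the members were up to 6 called genes per list and comparison with the largest changes, Mt1 and Mt2, the most abundant gene of each marker list, and the 3 genes most like Tlr2, Tlr4, Cd14 and Lbp, of which 1 gene is not reported here. Tlr12, Rela, Irf7, Ifnb1, Il1b, Ccl5, Camp, Mpo, Ngp, Spp1, Nkg7, Cd3g and the called markers were named after their values were seen. No sequence or position is given for Cd14.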

Additional observations from a re-analysis of the deposited data

Results flagged for a closer look

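Single mice stood apart within their group for 8 genes or sums in the 136 groups of 4 mice that were looked at, with a gap to the nearest mouse above Dixon's critical value for groups of this size, given as a share of the range of the group. In all, 9 groups were marked, and 6.8 would be by chance. Tlr4 was marked in the Cd group, where mouse 5 was at 0.16 TPM and the others at 0.34 to 0.37 TPM (gap 0.857 of the range), and in the Se group, where mouse 40 was at 0.77 TPM and the others at 0.37 to 0.41 TPM (0.900).

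Among the other pathway genes, Ikbke was at 17.7 TPM in Cd+Se mouse 13 and 7.51 to 9.22 TPM in the rest of that group (0.833). Tirap was at 9.15 TPM in Cd+Se mouse 14 and 4.91 to 5.47 TPM in the rest (0.868). Irak1 was at 22.1 TPM in Se mouse 40 and 17.1 to 17.4 TPM in the rest (0.946).

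Among the targets, Cxcl1 was at 38.1 TPM in Cd mouse 1 and 44.9 to 45.4 TPM in the rest (0.930). Ccl2 was at 15.5 TPM in Cd+Se mouse 13 and 3.84 to 4.85 TPM in the rest (0.913), and Tnfaip3 was at 0.96 TPM in Cd mouse 5 and 1.51 to 1.55 TPM in the rest (0.932). The sum of the endothelium markers was 60.3 TPM in control mouse 30 and 70.3 to 72.3 TPM in the rest (0.833).

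Tlr3 changed differently with Cd in mice with and without SeMet (interaction 1.04 on the log2 scale, limma adjusted p = 0.0218). The call was lost in 5 of 23 other settings, with limma adjusted p up to 0.0692. The level of Tlr3 by group was as follows. It was at 3.41 to 4.32 TPM in control, 1.47 to 2.11 TPM in Cd, 1.79 to 2.59 TPM in Se and 1.91 to 2.96 TPM in Cd+Se mice.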

How the results depend on the processing

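Of the members' values under other settings, 1289 kept their direction and their side of the threshold, 41 lost the call, 19 gained it and 15 turned sign. For Cd against control the number of called genes stayed within 1.5 times 3619 in every setting, and that of members was 1 with a mean of at least 5 TPM, where 3 members remained in the test. With that filter the members called were 1 for Cd+Se against Cd and 0 for Cd+Se against control, Cd+Se against Se and the interaction, and 26 and 31 genes were called for Cd+Se against control and Se. With no filter on low values 1131 genes were called for Cd+Se against Cd and 26 for the interaction. With the compared groups alone 66 genes and 0 members were called for Cd+Se against Cd, 18 and 0 against control, and 11 and 0 against Se. That setting was not run for the interaction, which uses all groups. Quantile normalization called 104 genes and 2 members for Cd+Se against control, 2 members for Cd+Se against Se and 524 genes for the interaction, and centring called 101 genes and 2 members for Cd+Se against control and 731 genes for the interaction. With protein-coding genes only, 5 members were called for Cd+Se against Cd. Without Cd mouse 5 and Cd+Se mouse 15 the counts were 490 genes and 1 member for Cd+Se against Cd, 130 and 2 for Cd+Se against control, and 232 genes for Cd+Se against Se.

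Leaving out each mouse in turn gave 712 to 2164 genes and 1 to 4 members for Cd+Se against Cd, 26 to 103 genes and 1 to 2 members for Cd+Se against control, 0 to 2 genes for Se against control, 28 to 193 genes for Cd+Se against Se, and 2 to 348 genes and 0 to 2 members for the interaction. The highest counts against control and Se came without Cd+Se mouse 15. The cause was not tested. These values turned sign. For Cd against control, Myd88 was 0.0042 after quantile normalization and 0.0062 after centring, and Lbp was 0.065 after centring. For Cd+Se against Cd, Tlr5 was −0.012 after centring, and Ly96 ran from −0.17 to 0.031 over the mice left out. For Cd+Se against control, Cd14 ran from −0.23 to 0.29, and Tlr4 from −0.018 to 0.12, with −0.032 after quantile normalization. Cd14 ran from −0.0072 to 0.54 for Cd+Se against Se, and for Se against control Ly96 ran from −0.061 to 0.19 and Irak4 from −0.21 to 0.0066. No paired analysis was possible because mouse numbers are not shared between groups. Depth is unknown, and Tlr4 had the lowest mean of the 10 genes (0.484 TPM).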

Other observations

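Apart from Tlr12, the other Toll-like receptor genes lay under the level set for testing. They are given as values only, chosen after they were seen. Tlr13, a mouse receptor for bacterial ribosomal RNA, was at 1.12, 1.20, 1.37 and 0.89 TPM in Cd+Se mice 13 to 16. In control mice 27 to 30 it was at 0.51, 0.40, 0.42 and 0.32 TPM, in Cd mice 1, 2, 5 and 6 at 0.39, 0.44, 0.33 and 0.48 TPM and in Se mice 39, 40, 41 and 44 at 0.24, 0.58, 0.53 and 0.34 TPM. All 4 Cd+Se mice were above the other 12 mice.

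Tlr1, whose product pairs with TLR2, was at 1.19, 1.03, 1.27 and 1.0 TPM in Cd mice 1, 2, 5 and 6 and at 2.24, 1.52, 0.65 and 1.29 TPM in Cd+Se mice 13 to 16. It was at 0.31 to 0.61 TPM in the control mice and 0.26 to 0.55 TPM in the Se mice, so every mouse given CdCl2 was above every mouse that was not. Tlr6, the other partner of TLR2, was at a mean of 0.239 TPM over the 16 mice, Tlr9 at 0.05 TPM and Tlr11 at 0.0781 TPM. Tlr7 and Tlr8 were lower in Cd than in control mice. Tlr7 was at 0.2 to 0.46 TPM in Cd and 0.48 to 0.63 TPM in control mice, without overlap. Tlr8 had a mean of 0.1375 TPM in Cd and 0.465 TPM in control mice, with overlap. In Cd+Se mice their means were 0.92 and 0.4625 TPM. How often genes under that level separate in this way was not counted.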
